A study of Rattus norvegicus with 38 samples.

Results

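The mitochondrially encoded subunits of respiratory complex I are Nd1 (ENSRNOG00000030644), Nd2 (ENSRNOG00000031033), Nd3 (ENSRNOG00000033615), Nd4l (ENSRNOG00000031053), Nd4 (ENSRNOG00000029707), Nd5 (ENSRNOG00000029971) and Nd6 (ENSRNOG00000029042). The genes were taken by these 7 rat Ensembl gene IDs, and all 7 of 7 were found among the 24057 genes of the deposited tables. RNA was sequenced from heart tissue of male Sprague-Dawley rats at 10 weeks of age. The regions were the sinoatrial node, which sets the heartbeat and was split into an inferior (iSAN) and a superior (sSAN) piece, both atria (RA on the right, LA on the left) and the left ventricle (LV). There were 4 failing and 4 healthy libraries per region, with 2 healthy ones in LV, which made 38 libraries in 10 groups. The labels describe constriction of the ascending aorta in pups of 1 week, with hypertrophy of the left ventricle following. That description is attached to healthy and to failing libraries alike, so what the healthy rats underwent is not known here.

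Complex I (NADH:ubiquinone oxidoreductase) takes electrons from NADH, passes them to ubiquinone and pumps protons across the inner mitochondrial membrane. Most of its subunits come from nuclear genes, and the mitochondrial genome encodes the hydrophobic core of its membrane arm. Nd2, Nd4 and Nd5 resemble ion antiporters and form the proton channels of that arm, Nd1 holds the entrance of the ubiquinone site, and the small proteins Nd3, Nd4l and Nd6 link these parts. Mitochondrial DNA is transcribed as long precursors that are cut into single RNAs. Nd6 is transcribed from the light-strand promoter, opposite to the other members, and lies next to Nd5. Nd4l and Nd4 overlap and are carried on a shared mRNA. Heart muscle is rich in mitochondria, and their transcripts are among the most abundant in it.

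Several properties of the libraries bear on every value. Libraries held 17406473 to 27355777 estimated counts. Each title ends in a 4-digit code, and a code occurs in several regions but in only 1 health state, so that a batch tied to the codes and health state cannot be told apart. The labels do not say that codes mark animals, and the p-values measure the spread between these libraries. Because codes recur, a result seen in several regions may not be independent between them. Where failing and healthy libraries are said not to overlap, the share of all genes that separate in this way was not counted in any region. Failing library LV0507 stood apart, with 61.3% of its counts in its 10 most abundant genes, against 28.1% to 46.6% in the other 3 failing LV libraries. Whether counting used strand is not given, so reads from Nd6 and from the opposite strand of its region cannot be told apart. Reads shared by Nd4l and Nd4, or with copies of mitochondrial DNA in the nuclear genome, make those counts uncertain. The tissue was bulk, so fewer mitochondria-rich cells and less RNA per cell cannot be told apart.

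All 7 genes were abundant in all 38 libraries. The lowest estimated count of any member in any library was 8748 (Nd4l) and the highest was 743969. Ranked by count among all genes, Nd4 stood at positions 5 to 13, Nd2 at 5 to 14, Nd1 at 7 to 14, Nd5 at 8 to 18, Nd3 at 9 to 35, Nd6 at 15 to 66 and Nd4l at 26 to 232. Levels can be compared between genes only per length, for which TPM (a share of all transcripts, corrected for length) was used. Median TPM over the 38 libraries was 42790 for Nd3, 20410 for Nd4l, 16000 for Nd1, 13890 for Nd2, 13630 for Nd4, 10720 for Nd6 and 6277 for Nd5. Nd3 therefore led per length, although its median share of library counts was 0.376%. The median shares of library counts were 1.32% for Nd4, 1.09% for Nd5, 0.999% for Nd2, 0.983% for Nd1, 0.235% for Nd6 and 0.114% for Nd4l. The length used by the authors, relative to that of Nd5, was 0.0578 for Nd3 and 0.036 for Nd4l, the shortest members. TPM of such short genes depends on the fragment length assumed. That length was not given in the sources used here, and its part in the results was not tested.

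**Figure D1:**
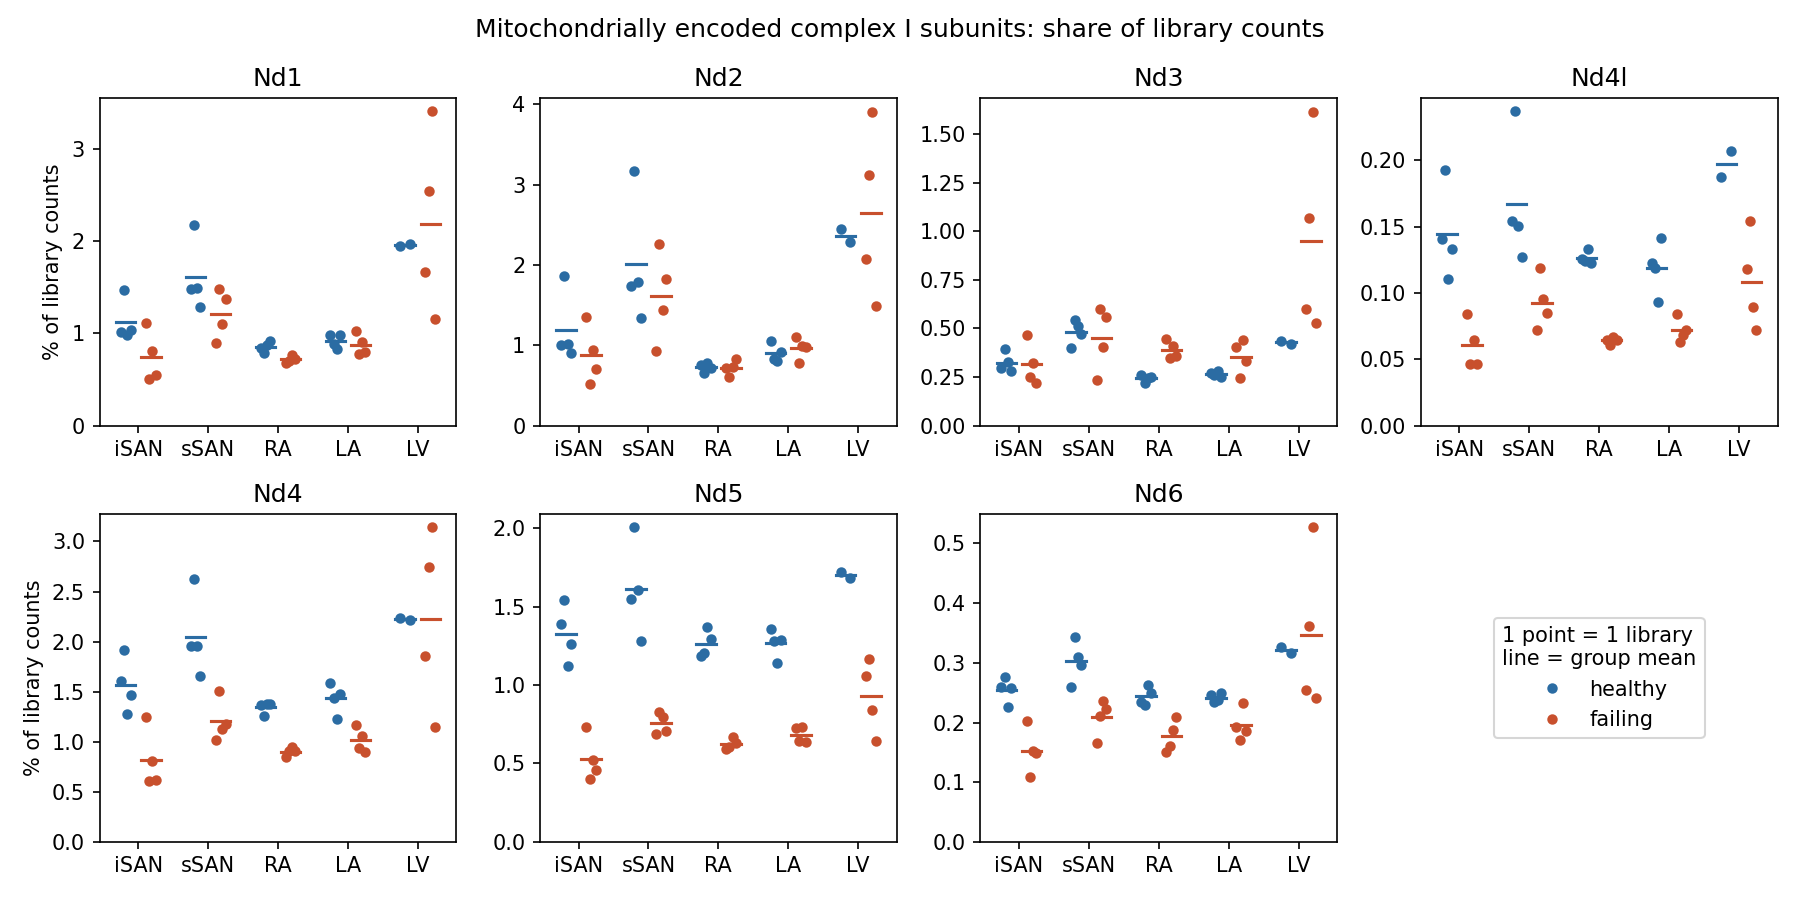
Share of library counts (%, vertical axis from 0) of each of the 7 genes by region, with healthy libraries in blue and failing libraries in red. Each point is 1 library and each line is a group mean. Failing libraries lie below healthy ones in every region for Nd4l and Nd5, and above them in RA and LV for Nd3. How many of all genes separate in this way was not counted.

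The 7 genes together made up 9.29% and 9.09% of counts in the 2 healthy LV libraries. In healthy sSAN they made up 7.53%, 11.1%, 7.82% and 6.46%, and in healthy iSAN 5.71%, 7.65%, 5.06% and 5.33%. In healthy LA the sums were 5.61%, 5.05%, 4.62% and 5.30%, and in healthy RA 4.76%, 4.48%, 5.04% and 4.93%. By mean the order was LV, sSAN, iSAN, LA and RA. The ranges of each pair of neighbours in this order overlapped, while healthy iSAN, LA and RA each lay wholly below healthy LV. Libraries iSAN0921 and sSAN0921 were the highest of their groups.

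All 7 genes were higher in healthy LV than in healthy LA, against 22.5% of all genes tested that were called higher in this comparison. The antiporter-like subunit Nd2 had shares of 2.44% and 2.28% in LV and of 1.05%, 0.83%, 0.806% and 0.913% in LA. Those groups did not overlap, and the log2 difference was 1.92 (SE 0.13, adjusted p = 8.09e-07, edgeR). Nd1 was higher by 1.61 on the log2 scale (SE 0.12), Nd4l by 1.26 (SE 0.15), Nd3 by 1.22 (SE 0.10), Nd4 by 1.16 (SE 0.12), Nd5 by 0.95 (SE 0.11) and Nd6 by 0.93 (SE 0.10), with adjusted p from 1.40e-06 to 8.55e-05. The median log2 difference of the members was 1.22, beside -0.03 over all genes. The scale matters here, since the median gene moved to -0.57 when limma was used on log2(TPM + 1), where 704 genes were called higher and 10143 lower, beside 3230 and 3023 in edgeR. On that TPM scale the members' median was 0.45, which is 1.02 above the median gene, and Nd5 (0.18, adjusted p = 0.088) and Nd6 (0.16, adjusted p = 0.063) were no longer called. In a fit of all 38 libraries the calls of Nd3 (adjusted p = 0.053) and Nd6 (adjusted p = 0.064) were lost.

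Healthy sSAN exceeded healthy RA for 5 of the 7 genes, beside 14.1% of all genes called higher. Nd2 had shares of 1.73%, 3.16%, 1.79% and 1.34% in sSAN and of 0.749%, 0.656%, 0.783% and 0.719% in RA, with no overlap (log2 difference 1.74, SE 0.33, adjusted p = 0.0065). Nd3 had shares of 0.398%, 0.546%, 0.513% and 0.472% in sSAN and of 0.261%, 0.217%, 0.243% and 0.253% in RA, again with no overlap (1.22, SE 0.19, adjusted p = 0.0027). Nd1 (1.17, SE 0.25, adjusted p = 0.011), Nd4 (0.86, SE 0.24, adjusted p = 0.029) and Nd6 (0.54, SE 0.17, adjusted p = 0.049) were also called. Nd4l (0.67, adjusted p = 0.078) and Nd5 (0.60, adjusted p = 0.089) did not pass, although both passed without library sSAN1002, with 0.83 and 0.74. The members' median was 0.86, beside 0.02 over all genes. With limma on log2(TPM + 1) the median gene stood at -0.31, with 771 genes called higher and 4886 lower beside 1995 and 1274 in edgeR, and the members' median was 0.39. The codes pair these libraries, and with the code as a replicate block 3 of the 7 genes passed, with Nd4 at adjusted p = 0.058 and Nd6 at 0.074. The call of Nd4 was lost when any of the 4 RA libraries or sSAN0920 was left out, and that of Nd6 when any RA library, sSAN0921 or sSAN1001 was left out.

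The remaining healthy comparisons gave smaller differences. Between sSAN and iSAN 0 of the 7 genes passed, beside 0.00698% of all genes. An unadjusted p under 0.05 was reached by 5 members, beside 1463 of the 14326 genes tested. DESeq2 called 1 member (Nd3), beside 57 genes higher and 68 lower of 17918. Log2 differences of sSAN minus iSAN were 1.01 for Nd2 (SE 0.40), 0.81 for Nd3 (SE 0.22), 0.77 for Nd1 (SE 0.29) and 0.64 for Nd4 (SE 0.28), and 0.53, 0.49 and 0.47 for Nd5, Nd6 and Nd4l. Between iSAN and RA 0 of 7 passed, beside 17.6% of all genes. An unadjusted p under 0.05 was reached by 3 members, beside 4435 of the 14129 genes tested. DESeq2 called 1 member, beside 2030 genes higher and 1309 lower of 16382. Nd2 gave the widest gap (0.73, SE 0.25, adjusted p = 0.068), which was 0.38 and called (adjusted p = 0.026) without library iSAN0921, whose Nd2 share was 1.86% beside 0.906% to 1.02% in the other 3. The differences of iSAN minus RA were 0.41 for Nd3 (SE 0.14), 0.41 for Nd1 (SE 0.17), 0.22 for Nd4, 0.20 for Nd4l, 0.07 for Nd5 and 0.06 for Nd6. Between LA and RA 0 of 7 passed, beside 9.14% of all genes. An unadjusted p under 0.05 was reached by 1 member, beside 3014 of the 14024 genes tested. That member was Nd2 (0.34, SE 0.10, adjusted p = 0.063), which passed with the code as a replicate block (adjusted p = 0.0020), in DESeq2 (0.012) and without library LA1001 (0.047). The differences of LA minus RA were 0.15 for Nd3, 0.14 for Nd1, 0.12 for Nd4, 0.03 for Nd5, 0.01 for Nd6 and -0.06 for Nd4l.

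In both parts of the node, Nd4l and Nd5 were lower in failing than in healthy hearts. Nd5, an antiporter-like subunit at the far end of the membrane arm, made up 0.734%, 0.398%, 0.525% and 0.459% of counts in failing iSAN and 1.39%, 1.54%, 1.12% and 1.26% in healthy iSAN. Every failing value lay below every healthy one, and the log2 difference was -1.46 (SE 0.29, adjusted p = 0.0054), a level 0.364 times that in healthy iSAN. In sSAN Nd5 made up 0.685%, 0.830%, 0.799% and 0.706% of failing and 1.55%, 2.01%, 1.61% and 1.28% of healthy counts. These groups did not overlap either (log2 difference -1.30, SE 0.27, adjusted p = 0.022). Nd4l made up 0.0840%, 0.0468%, 0.0643% and 0.0468% in failing iSAN and 0.141%, 0.193%, 0.110% and 0.133% in healthy iSAN, with no overlap (-1.39, SE 0.31, adjusted p = 0.0081). Its values in sSAN were 0.0720%, 0.119%, 0.0952% and 0.0845% in failing and 0.154%, 0.237%, 0.150% and 0.127% in healthy hearts (-1.07, SE 0.30, adjusted p = 0.046).

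In iSAN 4 of the 7 genes were lower in failing hearts and 0 were higher, beside 19.0% of all genes called lower. Besides Nd5 and Nd4l these were Nd4 (-1.06, SE 0.34, adjusted p = 0.035) and Nd6 (-0.86, SE 0.25, adjusted p = 0.024). The members' median was -0.86, beside 0.01 over all genes. With plain library totals the median gene stood at 0.17, and 3432 genes were called higher and 1393 lower, beside 2803 and 2730 with TMM scaling. On that scale 4 members were also called lower, with a members' median of -0.73. Nd1 (-0.72, SE 0.35, adjusted p = 0.13), Nd2 (-0.57, SE 0.41, adjusted p = 0.29) and Nd3 (-0.17, SE 0.31, adjusted p = 0.70) did not pass. Failing library iSAN0409 had the highest failing share of all 7 genes, with a sum of 5.20% beside 2.43%, 3.63% and 2.74%, and without it Nd1 passed (-1.09, adjusted p = 0.013). The call of Nd4 was lost when any of iSAN0506, iSAN0507, iSAN0508, iSAN0920, iSAN0921 and iSAN1002 was left out. That of Nd6 was lost when any of iSAN0507, iSAN0508, iSAN0920, iSAN0921 and iSAN1002 was left out.

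In sSAN 2 of the 7 genes were lower in failing hearts and 0 were higher, beside 4.56% of all genes called lower. Nd4 (-0.97, SE 0.29, adjusted p = 0.056) and Nd6 (-0.73, SE 0.22, adjusted p = 0.056) did not pass in edgeR but did in DESeq2 (adjusted p = 9.28e-04 and 0.0020), and their failing and healthy shares did not overlap. Nd1 (-0.62, adjusted p = 0.20), Nd2 (-0.54, adjusted p = 0.39) and Nd3 (-0.29, adjusted p = 0.56) overlapped between groups. The members' median was -0.73, beside -0.01 over all genes. With plain library totals the median gene stood at 0.17, with 1979 genes called higher and 194 lower beside 1280 and 654, and the members' median was -0.54. The call of Nd4l was lost when any library other than sSAN0506 was left out, and that of Nd5 without sSAN0507, sSAN0508 or sSAN0920, with adjusted p of 0.055 to 0.056.

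**Figure D2:**
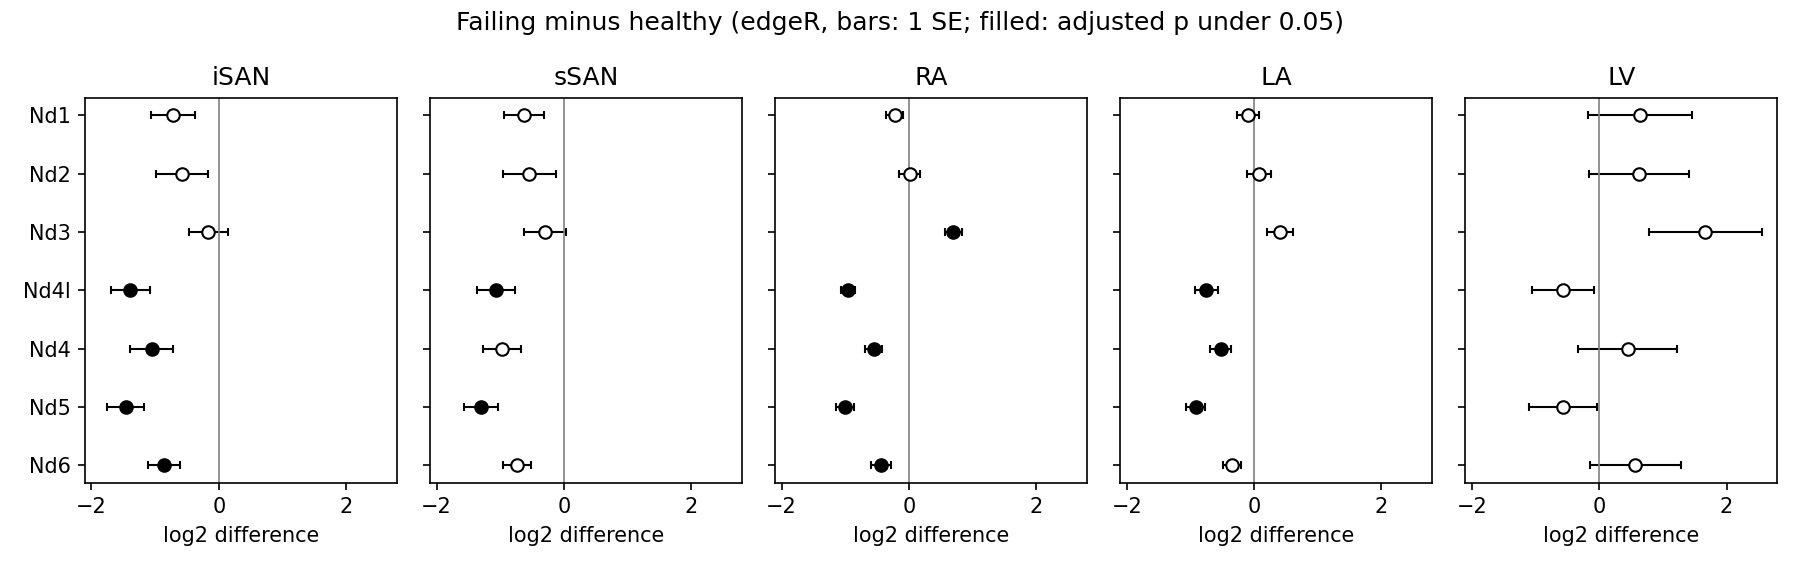
Log2 difference of failing minus healthy (horizontal axis) for each of the 7 genes in each region, from edgeR with TMM scaling. Bars show 1 SE and filled points passed an adjusted p of 0.05, which Nd4l and Nd5 did in iSAN, sSAN, RA and LA and no gene did in LV.

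In RA the 7 genes did not move in 1 direction: 4 genes were lower in failing hearts, beside 23.0% of all genes called lower, and Nd3 was higher, beside 24.5% of all genes called higher. Nd3, a short subunit near the ubiquinone site, made up 0.444%, 0.350%, 0.409% and 0.357% of counts in failing RA and 0.261%, 0.217%, 0.243% and 0.253% in healthy RA. The failing libraries all lay above the healthy ones (log2 difference 0.70, SE 0.14, adjusted p = 0.0029). Nd5 made up 0.592%, 0.603%, 0.669% and 0.628% in failing RA and 1.18%, 1.21%, 1.37% and 1.30% in healthy RA, again with no overlap and in the opposite direction (-1.0, SE 0.14, adjusted p = 6.79e-04). Nd4l made up 0.0643%, 0.0610%, 0.0668% and 0.0646% in failing and 0.126%, 0.124%, 0.133% and 0.122% in healthy RA, a level 0.516 times that of healthy hearts (-0.95, SE 0.11, adjusted p = 3.10e-04). The other lower genes were Nd4 (-0.56, SE 0.13, adjusted p = 0.0081) and Nd6 (-0.44, SE 0.16, adjusted p = 0.041). Nd1 (-0.23, SE 0.14, adjusted p = 0.19) and Nd2 (0.01, SE 0.16, adjusted p = 0.96) did not pass.

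The members' median in RA was -0.44, beside 0.02 over all genes. With limma on log2(TPM + 1) the median gene stood at -0.19, and 1662 genes were called higher and 5121 lower, beside 3434 and 3223 in edgeR. On that scale Nd3 stayed higher (0.42, adjusted p = 0.012) and the other 6 genes were called lower, with Nd2 at -0.27 (adjusted p = 0.043) after a value near 0 in edgeR and Nd1 at -0.50 (adjusted p = 0.0019). Nd3 and Nd4l lay on opposite sides of the median gene on both scales. In a fit of all 38 libraries, where the regions share 1 estimate of the spread, the calls of Nd3 (adjusted p = 0.17), Nd4 (0.22) and Nd6 (0.28) were lost in RA. The call of Nd6 was also lost when any library other than RA0508 was left out.

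In LA 3 of the 7 genes were lower in failing hearts and 0 were higher, beside 23.9% of all genes called lower. Nd5 made up 0.725%, 0.643%, 0.732% and 0.640% of counts in failing LA and 1.36%, 1.28%, 1.14% and 1.29% in healthy LA, with no overlap (-0.92, SE 0.15, adjusted p = 0.0012). Nd4l made up 0.0840%, 0.0628%, 0.0681% and 0.0723% in failing and 0.122%, 0.119%, 0.0930% and 0.141% in healthy LA, also apart (-0.75, SE 0.18, adjusted p = 0.0073). Nd4 was lower by a smaller margin (-0.53, SE 0.17, adjusted p = 0.030). Nd3 had the only positive difference above 0.1 (0.40, SE 0.20, adjusted p = 0.13), and it passed without library LA0506 (0.57, adjusted p = 0.018). Nd6 (-0.34, SE 0.14, adjusted p = 0.072) passed in DESeq2 (adjusted p = 0.014) and without library LA0507 (-0.41, adjusted p = 0.026). Nd1 (-0.10, SE 0.17) and Nd2 (0.08, SE 0.18) had adjusted p of 0.66 and 0.75.

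The members' median in LA was -0.34, beside 0.01 over all genes. With limma on log2(TPM + 1) the median gene stood at -0.14, with 1828 genes called higher and 4688 lower beside 3461 and 3392, and the members' median was -0.56. Nd2 was then at -0.14 (adjusted p = 0.39). The joint fit of the 38 libraries did not call Nd4 (adjusted p = 0.25), and its call was also lost without LA0506, LA0508, LA0920, LA0921 or LA1002.

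In LV 0 of the 7 genes passed in edgeR, which called 0 of 13670 genes (0% of all genes), with 1510 genes and 0 members under an unadjusted p of 0.05. DESeq2 called 275 genes higher and 67 lower in LV, and 0 of the 7. The failing libraries were far apart: Nd1, for example, made up 1.66%, 2.54%, 3.40% and 1.15% of counts in them, on both sides of the 1.95% and 1.96% in healthy LV. Nd5 lay below both healthy values in all 4 failing libraries, with 1.06%, 1.17%, 0.844% and 0.643% beside 1.72% and 1.68% (log2 difference -0.57, SE 0.53, adjusted p = 0.64). Nd4l did too, with 0.118%, 0.154%, 0.0894% and 0.0724% beside 0.188% and 0.207% (-0.56, SE 0.49, adjusted p = 0.62). Nd3 lay above, with 0.599%, 1.07%, 1.62% and 0.526% beside 0.434% and 0.423% (1.66, SE 0.89, adjusted p = 0.49). It was called in the fit of all 38 libraries (1.68, adjusted p = 0.022), which called 1813 of 15770 genes higher and 1196 lower. How many of all genes separated in LV was not counted, and separation of 4 from 2 libraries is a weak description.

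Library LV0507 held the highest LV share of Nd1, Nd2, Nd3, Nd4 and Nd6, and the 7 genes together made up 13.5% of its counts, beside 7.62%, 11.1% and 5.27% in the other failing LV libraries. Without it the LV differences were -0.05 for Nd1, -0.12 for Nd4 and -0.11 for Nd6, in place of 0.64, 0.45 and 0.57. Nd2 went from 0.62 to -9.66e-04, while Nd3 stayed at 0.86, Nd4l at -0.70 and Nd5 at -0.77, none of them called. The members' median in LV was 0.57, beside 0.03 over all genes, and it was -0.17 beside a median gene of -0.26 with limma on log2(TPM + 1).

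Whether the difference between failing and healthy hearts itself differed between regions was tested with an interaction term. For iSAN against sSAN 0 of the 7 genes passed, beside 0% of all genes. An unadjusted p under 0.05 was reached by 0 members, beside 598 of the 14918 genes tested. The differences of the 2 health effects were -0.31 for Nd4l (SE 0.44), -0.15 for Nd5, -0.12 for Nd6, -0.09 for Nd1, -0.08 for Nd4, -0.02 for Nd2 and 0.14 for Nd3. For iSAN against RA 0 passed, beside 0.0203% of all genes. An unadjusted p under 0.05 was reached by 1 member, beside 1716 of the 14785 genes tested. This member, Nd3, had the widest gap (-0.85, SE 0.35, adjusted p = 0.38). Without library iSAN0409 that gap was called (-1.22). The other 6 genes lay between -0.57 (Nd2) and -0.41 (Nd6), with -0.49 for Nd4, -0.48 for Nd1, -0.45 for Nd5 and -0.42 for Nd4l. For LA against RA 0 passed, beside 0.171% of all genes, with Nd3 again the widest (-0.30, SE 0.24, adjusted p = 0.78). The others were 0.20 for Nd4l, 0.13 for Nd1, 0.10 for Nd6, 0.08 for Nd5, 0.06 for Nd2 and 0.03 for Nd4. For LV against LA 0 passed, beside 0.114% of all genes, with Nd3 at 1.30 (SE 0.79, adjusted p = 0.82). The others were 1.01 for Nd4, 0.95 for Nd6, 0.77 for Nd1, 0.58 for Nd2, 0.38 for Nd5 and 0.22 for Nd4l. DESeq2 called 0 of the 7 in each of these tests. These tests had an SE of 0.18 to 0.79, and a p that misses the threshold does not show that the regions are alike.

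The make-up of the 7 transcripts, taken as each gene's share of their summed TPM, does not depend on how libraries are scaled. Nd3 made up 50.6%, 45.1%, 46.2% and 42.6% of that sum in failing RA and 28.2%, 25.6%, 25.6% and 27.2% in healthy RA. Failing libraries also lay above healthy ones for Nd3 in iSAN (37.7% to 44.5% beside 27.1% to 32.7%), LA (34.3% to 44.2% beside 25.1% to 31.7%) and LV (38.6% to 51.2% beside 25.3% and 25.9%). In sSAN they overlapped, with 30.9% to 42.9% in failing and 26.8% to 35.9% in healthy hearts. Nd5 went the other way in all 5 regions without overlap, from a mean of 8.0% ± 0.42 (SD, n = 4) in healthy to 4.27% ± 0.26 (SD, n = 4) in failing RA, and from 5.97% ± 0.39 (SD, n = 4) to 3.95% ± 0.996 (SD, n = 4) in sSAN. Nd4l lay on the same side as Nd5 in all 5 regions, also without overlap, for example 20.2% ± 1.71 (SD, n = 4) in healthy and 12.8% ± 0.58 (SD, n = 4) in failing iSAN. The same codes recur across regions, so the 5 regions may not be independent observations. The share of Nd1 overlapped in iSAN, sSAN and LA, with group means of 12.6% to 13.9%. These shares sum to a fixed total, so a higher share of Nd3 lowers the others, and lower levels of the others raise the share of Nd3. Mean TPM of Nd3 itself was 0.93 times the healthy level in failing iSAN and 0.91 times in failing sSAN, with overlapping groups. For Nd5 these values were 0.38 and 0.46, and for Nd4l 0.40 and 0.55. In RA, LA and LV mean TPM of Nd3 was 1.35, 1.13 and 1.82 times the healthy level, with overlap in LA.

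**Figure D3:**
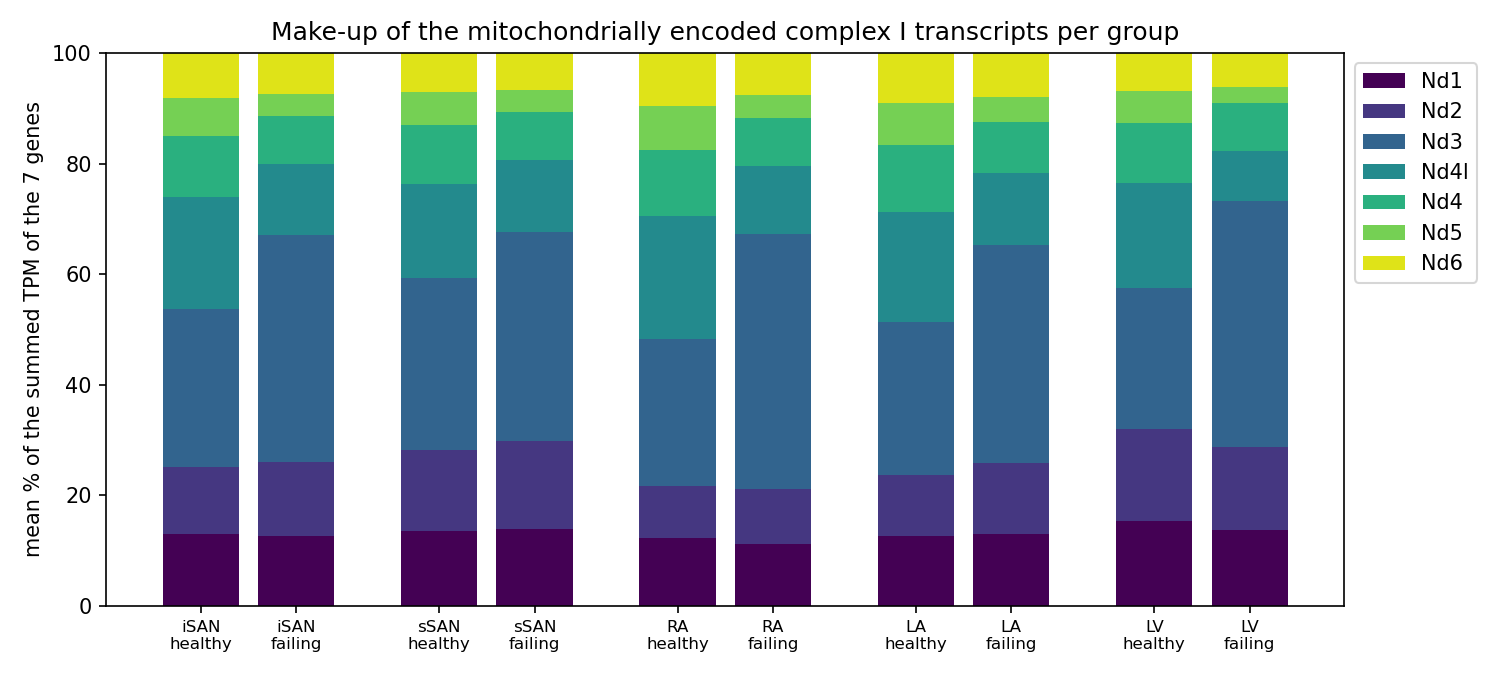
Stacked bars of each gene's mean share of the summed TPM of the 7 genes (%, vertical axis from 0), by region and health state. The Nd3 segment is taller in each failing group, with means of 37.7% to 46.1% beside 25.6% to 31.3% in healthy groups, and the Nd5 and Nd4l segments are shorter.

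The ratio of Nd5 to Nd1 puts the distal antiporter-like subunit against the first protein-coding gene of the same heavy-strand precursor. In TPM it was 0.62, 0.68, 0.69 and 0.62 in healthy RA and 0.38 in each of the 4 failing RA libraries. In healthy LA it was 0.58 to 0.63 and in failing LA 0.31 to 0.36, and in iSAN 0.46 to 0.60 and 0.28 to 0.37. In sSAN it was 0.41 to 0.47 in healthy and 0.23 to 0.34 in failing hearts, and in LV 0.39 and 0.38 beside 0.11 to 0.28. The groups did not overlap in any of the 5 regions. The ratio was chosen after the values were known and is given without a test. How often ratios of other genes separate the groups was not counted.

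A pair of ratios between neighbouring genes was tested within libraries, in 10 exact two-sided permutation tests with Benjamini-Hochberg adjustment. The first set Nd6, from the light-strand promoter, against Nd5 beside it on the heavy-strand precursor. Its log2 TPM ratio was 0.78, 0.75, 0.85 and 1.01 in failing iSAN and 0.21, 0.16, 0.32 and 0.34 in healthy iSAN. Every failing library lay above every healthy one in iSAN, and the same held in sSAN, RA, LA and LV. The mean was higher in failing hearts by 0.59 in iSAN, 0.54 in sSAN, 0.54 in RA and 0.57 in LA, each with an exact permutation p of 0.0286, the smallest that 4 against 4 libraries can give, and an adjusted p of 0.048. With medians in place of means the differences were 0.50 to 0.59 (permutation test of medians, adjusted p = 0.095). A permutation of medians of 4 against 4 libraries could not pass 0.05, so it could not test these calls. Exchanging the lowest library of the higher group for the highest of the lower group leaves both medians unchanged. In sSAN the call from means was lost when any 1 of the 4 failing libraries was left out (0.47 to 0.60). The 10 tests share 1 adjustment, and every called ratio test had the same exact permutation p of 0.0286. If any 1 of these calls is lost, the adjusted p of the others also rises above 0.05, so the calls stand or fall together. In RA, for example, the ratio was 0.26 ± 0.03 (SD, n = 4) in healthy hearts and 0.81 ± 0.17 (SD, n = 4) in failing ones. In LV the ratio was 0.58, 0.95, 1.96 and 1.22 in failing hearts and 0.24 and 0.22 in healthy ones (exact permutation p = 0.133, where 0.0667 is the smallest possible). The fitted differences above were further below 0 for Nd5 than for Nd6 in iSAN, sSAN, RA and LA.

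The second ratio set Nd4l against Nd4, which overlap on a shared mRNA. Its log2 TPM ratio was 0.58, 0.40, 0.48 and 0.50 in failing RA and 0.86, 0.95, 0.93 and 0.81 in healthy RA. It was lower in failing hearts by -0.40 in RA and by -0.28 in iSAN. Both had an exact permutation p of 0.0286 and an adjusted p of 0.048, which depends on the calls of Nd6 over Nd5 as stated above. With medians in place of means the differences were -0.41 and -0.22 (adjusted p = 0.095), in a permutation test that could not pass 0.05 with 4 against 4 libraries. The differences of -0.22 in LA (exact permutation p = 0.0857) and -0.08 in sSAN (p = 0.371) did not pass. In LV the difference was -0.81 (exact permutation p = 0.133), where 4 against 2 libraries cannot give a p under 0.0667 and so could not pass. In library LV0507 the ratio was -0.83, beside 0.15 to 0.32 in the other 3 failing and 0.73 and 0.88 in the healthy LV libraries. Both genes were nevertheless lower together in iSAN, RA and LA by the fits above.

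**Figure D4:**
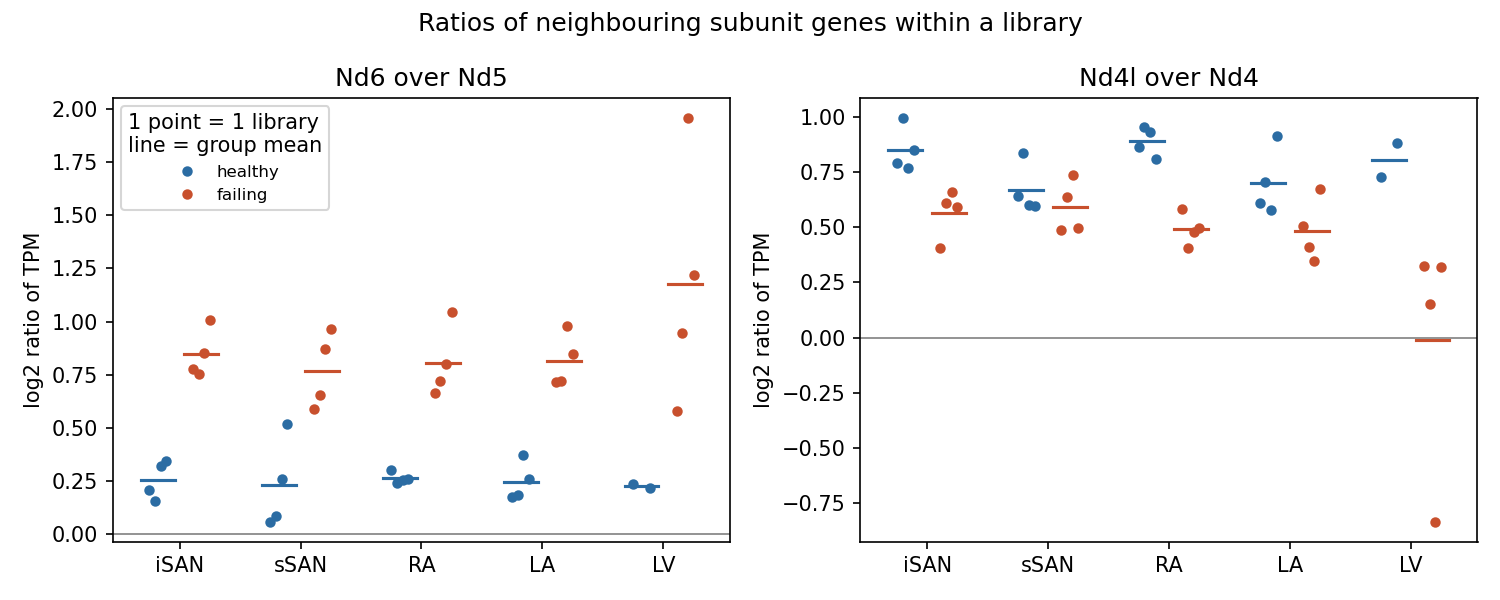
Log2 ratio of TPM within each library for Nd6 over Nd5 (left) and Nd4l over Nd4 (right), by region. Each point is 1 library, each line a group mean, blue healthy and red failing. Nd6 over Nd5 is higher in every failing library than in any healthy library of the same region, while Nd4l over Nd4 separates the groups in iSAN, RA and LV and overlaps in sSAN and LA.

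The 7 genes varied together over the libraries to unequal degrees. Pearson correlations of log2 CPM between members over the 38 libraries ran from 0.51 (Nd3 and Nd5) to 0.98, and from 0.76 to 0.98 after group means were removed. These are descriptions, since libraries share codes, regions and depth. Among all other genes, the pattern closest to the mean of the 7 was that of ENSRNOG00000031766 (Pearson r = 0.97 over 38 libraries) and ENSRNOG00000034234 (r = 0.96), which had a mean TPM of 29534 and 71006. After group means were removed the r was 0.97 and 0.98. The files do not pair these IDs with names. By the same measure the members themselves ranged from 0.86 (Nd3) to 0.99 (Nd4), each being part of that mean.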

How the data were processed

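The submitters' processing notes name Trimmomatic 0.39 and kallisto 0.48.0, and per these notes the authors ran both. The labels' protocols name a TruSeq RNA kit. Build, annotation and strand setting were not given in the sources used here. Gene tables as deposited hold estimated counts and TPM. Over 13474 genes the deposited estimated count divided by the TPM was a product of 1 factor per gene and 1 per library (deviation of the log at most 5.8e-13), so the authors' counts were already length-scaled. The 7 members were named by the list that chose them, and the members and lists were chosen with earlier results of these data known. A reference table of assembly GRCr8 matched 0 of the IDs, so lists of nuclear complex I genes and cell type markers, and checks of the tissue labels by markers, were not applied, and no sequence or coordinate was used. No library was identical to another.

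Estimated counts were rounded, filtered with filterByExpr (count minimum 10, total minimum 15), scaled with TMM and tested by quasi-likelihood (robust) in edgeR 4.0.16 under R 4.3.3, on the groups compared, with Benjamini-Hochberg adjustment over all genes tested and a threshold of 0.05. The text names all 7 members in every comparison and the 2 other genes closest to their mean log2 CPM (prior count 2). Summed shares and make-up are descriptions. Alternatives were DESeq2 1.42.0 and its type of size factors, plain library totals, scaling without the members, no count filter, limma 3.58.1 on log2(TPM + 1) and log2(TPM + 0.1), a joint fit of the 38 libraries, a block on the code, and each library left out. Pairing by code was checked among healthy libraries only. Same-coded libraries deviated together in sSAN and RA (r of 0.20 to 0.23), iSAN and RA (0.17 to 0.30) and LA and RA (0.31 to 0.36), so codes pair these libraries by the data. In sSAN and iSAN r ran from -0.06 to 0.54, which does not settle whether codes pair them. Healthy LV and healthy LA share 2 codes (0.08 to 0.21). Steps were tested on simulated data.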

Additional observations from a re-analysis of the deposited data

Results flagged for a closer look

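In healthy iSAN, library iSAN0921 lay far from the other 3 libraries for 2 genes. Its share of library counts was 1.47% for Nd1, beside 0.984% to 1.04%, and 1.86% for Nd2, beside 0.906% to 1.02%. In healthy RA, library RA0921 was low for Nd4, with 1.26% beside 1.37% to 1.38%. The gap to the nearest library, divided by the range of the group, exceeded Dixon's critical value in each of these 3 cases. They came from 63 groups of 4 examined, of which chance flags about 1 in 20.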

How the results depend on the processing

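Numbers of members called that moved by over 1.5 times were as follows. DESeq2 called 4 in failing against healthy sSAN (2 in edgeR), and 1 each for sSAN against iSAN, iSAN against RA and LA against RA in healthy hearts (0 in edgeR). Over all genes it called 1862 higher and 1382 lower in failing against healthy sSAN, beside 1280 and 654 in edgeR. For sSAN against iSAN it called 57 and 68 (0 and 1 in edgeR), and for iSAN against RA 2030 and 1309 (1515 and 974). For LA against RA it called 844 and 857 (655 and 627). Limma with either pseudocount called 1 in failing against healthy sSAN, 3 for healthy sSAN against RA (5 in edgeR), 1 for iSAN against RA and 1 for LA against RA, and with a pseudocount of 0.1 it called 5 in LA (3 in edgeR). Over all genes limma on log2(TPM + 1) called 1085 higher and 95 lower in sSAN, and 771 and 4886 for sSAN against RA. It called 1022 and 391 for iSAN against RA, and 486 and 644 for LA against RA. With a pseudocount of 0.1 it called 1870 and 4670 in LA (3461 and 3392 in edgeR). The fit of all 38 libraries called 2 in RA (5 in the regional fit), 1 in LV (0) and 3 for sSAN against RA. Over all genes it called 2572 higher and 2308 lower in RA (3434 and 3223 in the regional fit). In LV it called 1813 and 1196 (0 and 0), and for sSAN against RA 1560 and 939 (1995 and 1274). Plain library totals called 2 for iSAN against RA and 1 for LA against RA, and no count filter called 1 for LA against RA. Over all genes plain library totals called 1440 higher and 607 lower for iSAN against RA, and 550 and 732 for LA against RA. No count filter called 655 and 622 for LA against RA. With the code as a replicate block, 3 members were called for sSAN against RA and 1 for LA against RA, and the block moved no other number of members called by over 1.5 times. Over all genes the block called 1971 higher and 1496 lower for sSAN against RA, and 1353 and 1339 for LA against RA. No paired analysis of failing against healthy libraries was possible because these share no code. Leaving out 1 library gave 2 to 5 members in iSAN, 0 to 2 in sSAN, 3 to 7 for sSAN against RA, 0 to 1 for iSAN against RA and for LA against RA, and 0 to 1 for the health effect of iSAN against RA.

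No member that edgeR called changed its sign. Of those that it did not call, Nd2 in RA was -0.014 with plain library totals and -0.27 with limma, which called it, and in LA -0.14 with limma. In LV limma gave -0.17 for Nd1, -0.14 for Nd2, -0.32 for Nd4 and -0.17 for Nd6, and plain library totals gave -0.0023 for Nd4. Leaving out 1 library gave -0.0837 to 0.11 for Nd2 in RA, -0.0256 to 0.20 for Nd2 in LA, and in LV -0.0457 to 0.97 for Nd1, -9.66e-04 to 0.94 for Nd2, -0.12 to 0.77 for Nd4 and -0.11 to 0.85 for Nd6. For iSAN against RA it gave -0.0149 to 0.33 for Nd4l, -0.0443 to 0.17 for Nd5 and -0.0204 to 0.13 for Nd6. For LA against RA, limma gave -7.29e-04 for Nd5 and -0.0163 for Nd6, plain library totals gave -0.0166 for Nd6, and leaving out 1 library gave -0.17 to 0.0441 for Nd4l, -0.00594 to 0.0844 for Nd5 and -0.0301 to 0.0638 for Nd6.

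Among the differences of health effects, none of which was called in edgeR, leaving out 1 library gave for iSAN against sSAN -0.46 to 0.10 for Nd1, -0.42 to 0.32 for Nd2, -0.22 to 0.34 for Nd3, -0.47 to 0.0911 for Nd4, -0.45 to 0.0152 for Nd5 and -0.38 to 0.0566 for Nd6, and the joint fit gave 3.24e-04 for Nd2. For LA against RA it gave -0.0503 to 0.18 for Nd2 and -0.0902 to 0.0960 for Nd4. For LV against LA it gave -0.0621 to 0.85 for Nd2 and -0.00639 to 0.45 for Nd4l, and Nd4l was -0.14 with plain library totals and -0.17 with limma.

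With medians in place of means, the differences of the log2 ratio of Nd6 to Nd5 were 0.55 in iSAN, 0.59 in sSAN, 0.50 in RA and 0.56 in LA. Those of Nd4l to Nd4 were -0.22 in iSAN and -0.41 in RA. None had an adjusted p under 0.05, which a permutation of medians of 4 against 4 libraries could not give. Leaving out 1 library gave 0.47 to 0.63 for Nd6 to Nd5 in sSAN. When a library was left out of 1 ratio test, the adjusted p of the other ratio tests was not recomputed.

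The summed share of the 7 genes, as a mean per group, was larger in TPM and after removal of the 10 most abundant other genes, the latter by construction. It was 9.24% of TPM in failing and 14.4% in healthy iSAN, 12.9% and 17.7% in sSAN, 9.23% and 11.9% in RA, 9.76% and 12.5% in LA, and 18.9% and 18.4% in LV. Without those 10 genes it was 7.57% of counts in healthy iSAN, 7.27% in failing and 11.4% in healthy sSAN, 4.75% and 6.13% in RA, 5.58% and 6.62% in LA, and 16.2% and 13.4% in LV. Failing and healthy LV overlapped in both measures, and library LV0507 raised the failing means. It had 24.6% of TPM, beside 12.9% to 21.6% in the other failing LV libraries. Without those 10 genes it had 28.2% of counts, beside 7.21% to 18.5%. The cause of these changes was not tested except where named. Depth was no limit for the members, which had at least 8748 counts in each library.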
